A study of Mus musculus with 15 samples.

Results

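The 10 genes described here encode the matriptase system and 4 kallikreins of the mouse mammary gland. They are the protease genes St14, Prss8 and Tmprss2, the inhibitor genes Spint1 and Spint2, the cell surface substrate gene Cdcp1 and the secreted kallikreins Klk6, Klk7, Klk8 and Klk10. They were taken by gene symbol from tables of 51826 genes, and all 10 symbols were found. They were selected on TPM values of these same libraries: earlier results had shown Cdcp1 and Spint1 among the genes that most separated the 2 classes of Trim24COE tumor. That difference is therefore described below without a test.

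The tables hold bulk RNA-seq of 15 libraries from 13 mice, all labelled as FVB. The Trim24COE group comprises 3 carcinosarcomas, of mice 64, 567 and 897, with 3 carcinomas, of mice 89, 273_5 and 3956. In these mice Cre under the MMTV promoter removes a stop cassette, so that FLAG-tagged Trim24 is expressed from a transgene in mammary epithelium. The control group has 4 mammary glands of mice with Cre alone (133, 392, 417_3 and 517_3), so that Cre is shared by both groups. The 3 non-TRIM24 tumors (219, FVB001 and FVB002) are carcinomas that arose spontaneously, and their genotype is labelled as unknown. The study's text gives FVB or FVB/129 as the background of these 3, so a difference of strain cannot be told apart from the group. A carcinosarcoma, or metaplastic tumor, holds both epithelial and mesenchymal tumor tissue. Ages are not given in the labels. The study's supplement lists them for the Trim24COE mice, where they differ within each tumor class, and its text calls the control glands age-matched. The transgene is a single insertion, and the 2 pathologists of the study differed on the class of tumors 89, 567 and 3956. The classes used here match those listed for pathologist 2. The supplement also lists calls based on RNA-seq, as carcinosarcoma for 64, 567 and 897 and as carcinoma for 89 and 273_5. How far the class labels draw on expression is not stated, so the classes may not be independent of it.

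Matriptase, the product of St14, is a serine protease anchored in the plasma membrane of nearly every epithelium. It works in a local cascade with prostasin, the product of Prss8, and is held in check by the Kunitz-type inhibitors HAI-1 and HAI-2, the products of Spint1 and Spint2. The cascade maintains epithelial barriers and can activate pro-HGF, pro-urokinase and the receptor PAR2. CDCP1 is a transmembrane glycoprotein that serine proteases cleave and Src family kinases phosphorylate. Kallikreins are secreted serine proteases best known from the shedding of skin, and their genes lie side by side in one cluster. TMPRSS2 is another membrane-anchored serine protease of glandular epithelia.

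Levels are given in TPM, a share of all transcripts that is scaled for transcript length and can be compared between genes. Since every library has an equal TPM total, the sequencing depth behind a value is unknown and the error of counting stays unstated. In 2 mice a repeat library was made in batch 2, which also holds the 3 non-TRIM24 tumors. The median change of a member between first and repeat library was 0.39 on the log2(TPM + 1) scale for gland 133 and 0.11 for carcinoma 3956. Glands 417_3 and 517_3 had a Spearman correlation of 0.979 over 16775 genes, above that of the repeat libraries of mice 133 (0.965) and 3956 (0.971), so results are also given with both averaged as 1 sample. The targeted gene, Trim24, ranged from 10.6 to 24.1 TPM in Trim24COE tumors and from 14.5 to 22.4 TPM in control glands. It did not separate these groups. The non-TRIM24 tumors, all sequenced in batch 2, lay below both groups at 5.34 to 10.04 TPM. The part of the batch in that difference was not tested. The study itself reports higher Trim24 in the Trim24COE tumors than in Cre-only glands by qRT-PCR, and overexpressed TRIM24 and FLAG protein by immunohistochemistry.

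The labelled tissue was checked against marker genes. The summed TPM of 8 luminal epithelial markers was 975.0 to 5126 in the glands, 2708 to 6421 in the carcinomas and 535 to 5199 in the non-TRIM24 tumors. It was 304 to 1413 in the carcinosarcomas, where 7 of the 8 markers still reached 1 TPM in every library. The 5 mesenchymal markers summed to 4279 to 8408 TPM in the carcinosarcomas to 677 to 4253 TPM in the carcinomas and to 581 to 1208 TPM in the glands. In this sum carcinoma 3956, at 4253 TPM and 5052 TPM in its repeat library, was level with carcinosarcomas 64 and 897 at 4279 and 4604 TPM. For Vim alone the classes were apart, with at most 996 TPM in a carcinoma and at least 1583 TPM in a carcinosarcoma. Their ranges overlapped for Fn1, Col1a1, Col3a1 and Pdgfrb. The adipocyte gene Adipoq stood at 1718 and 1946 TPM in glands 133 and 392 but at 10.2 and 10.8 TPM in glands 417_3 and 517_3. The library labelled tumor FVB001 held 4315 TPM of Adipoq and the lowest luminal sum of its group. In bulk tissue, fewer epithelial cells and less RNA per epithelial cell cannot be told apart, and this holds for every difference below.

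Positions are on GRCm38. St14 (chr9:31089402-31131853) and Cdcp1 (chr9:123170824-123216038) lie on chromosome 9, Spint1 on chromosome 2 (chr2:119237362-119249527) and Tmprss2 on chromosome 16 (chr16:97564682-97611195). Spint2 (chr7:29256323-29281912) and Prss8 (chr7:127925716-127930104) lie on chromosome 7, as do Klk10 (chr7:43781035-43785410), Klk8 (chr7:43797577-43803826), Klk7 (chr7:43811294-43816359) and Klk6 (chr7:43824499-43832030). Prss8 overlaps Kat8 on the opposite strand, St14 a processed pseudogene, and Klk8 and Klk10 the transcript 2310002F09Rik. Whether counting used strand is not given in the sources used here, so reads of these overlapping genes may be shared.

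RefSeq promoter sequence (GRCm38.p6) was matched for 8 of the 10 members and not for St14 and Prss8. In a window from 250 bases before the start to 50 after it, 4 motifs were searched on both strands, and none overlapped another. The E-box CAGGTG, bound by repressors of epithelial genes, occurred in 20.2% of all 32851 promoters, and the grainyhead-like motif AACNNGTT in 4.20%. The AP-1 motif TGANTCA occurred in 7.81% and TATAAA in 13.6%. The 250 bases upstream of the start are shown for Spint1, Spint2 and Cdcp1, which were low together in the carcinosarcomas, and for Klk8, the member with the highest level, with motif matches in capitals.
Spint1: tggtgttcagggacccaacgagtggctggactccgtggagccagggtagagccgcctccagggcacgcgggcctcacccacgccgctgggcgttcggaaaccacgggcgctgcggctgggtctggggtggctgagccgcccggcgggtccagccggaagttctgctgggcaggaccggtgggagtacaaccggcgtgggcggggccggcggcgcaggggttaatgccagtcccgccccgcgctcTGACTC
Spint2: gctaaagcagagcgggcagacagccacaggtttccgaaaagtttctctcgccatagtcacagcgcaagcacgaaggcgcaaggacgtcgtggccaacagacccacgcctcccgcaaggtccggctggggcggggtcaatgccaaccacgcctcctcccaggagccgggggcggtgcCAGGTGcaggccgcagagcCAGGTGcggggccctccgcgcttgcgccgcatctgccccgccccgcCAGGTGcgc
Cdcp1: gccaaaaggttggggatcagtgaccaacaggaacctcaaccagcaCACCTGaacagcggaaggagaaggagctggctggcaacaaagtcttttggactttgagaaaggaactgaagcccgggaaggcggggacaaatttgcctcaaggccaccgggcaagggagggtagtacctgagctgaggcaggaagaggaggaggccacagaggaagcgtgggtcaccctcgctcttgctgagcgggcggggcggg
Klk8: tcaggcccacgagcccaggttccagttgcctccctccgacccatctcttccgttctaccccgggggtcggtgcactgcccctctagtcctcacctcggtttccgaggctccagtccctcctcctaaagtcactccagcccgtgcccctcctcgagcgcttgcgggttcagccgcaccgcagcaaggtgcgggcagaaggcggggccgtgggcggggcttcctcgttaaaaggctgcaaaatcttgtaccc
These stretches run from chr2:119237110-119237359 on the plus strand for Spint1, chr7:29281978-29282227 on the minus strand for Spint2, chr9:123216039-123216288 on the minus strand for Cdcp1 and chr7:43797327-43797576 on the plus strand for Klk8. The Spint2 window held 3 copies of the E-box, at -74, -55 and -9 from the start, and the Cdcp1 window 1 copy at -205 and another after the start. The Spint1 window held the AP-1 letters TGACTCA from -6, so the stretch shown ends before the last letter of that match. The windows of Klk6, Klk7, Klk8, Klk10 and Tmprss2 held none of the 4 motifs. A match is a description of letters and not of a bound site.

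St14, the matriptase gene, stood at 36.7, 39.4, 141 and 123 TPM in control glands 133, 392, 417_3 and 517_3. It stood at 95.8, 73.1 and 106 TPM in carcinomas 89, 273_5 and 3956, and at 2.1, 5.86 and 1.18 TPM in carcinosarcomas 64, 567 and 897. The carcinomas thus fell within the range of the glands, and every carcinosarcoma lay below every other library. Among the non-TRIM24 tumors, 219 had 96.1 TPM, FVB001 8.59 TPM and FVB002 63.9 TPM. The group means were 91.8 ± 17.0 TPM in carcinomas (SD, n = 3), 85.0 ± 54.8 in glands (n = 4), 56.2 ± 44.2 in non-TRIM24 tumors (n = 3) and 3.05 ± 2.48 in carcinosarcomas (n = 3). The ranges of the first 3 groups in this order overlapped, and that of the carcinosarcomas met none of them.

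Spint2, the HAI-2 gene, was the most abundant member in the glands, with 220.3, 293, 599 and 676 TPM in glands 133, 392, 417_3 and 517_3. The carcinomas were close to one another at 447, 383 and 387 TPM. The carcinosarcomas had 12.3, 34.4 and 4.8 TPM, below every other library. Spint1, the HAI-1 gene, was expressed at a lower level throughout, with 6.04, 26.4, 56.2 and 53.0 TPM in the glands and 32.5, 30.2 and 36.2 TPM in the carcinomas. In the carcinosarcomas Spint1 stood at 0.80, 1.12 and 0.17 TPM. Both inhibitor genes therefore had the same order of groups, with glands, carcinomas and non-TRIM24 tumors overlapping and carcinosarcomas apart.

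Prss8, the prostasin gene, had 20.7, 19.5, 46.3 and 46.7 TPM in the glands, 20.8, 35.6 and 24.5 TPM in the carcinomas and 0.74, 1.67 and 0.50 TPM in the carcinosarcomas. Cdcp1 had 11.5, 12.1, 81.8 and 61.7 TPM in the glands, 43.7, 33.9 and 33.0 TPM in the carcinomas and 0.78, 1.00 and 0.37 TPM in the carcinosarcomas. Each carcinosarcoma was below every other library for both genes. The glands were not uniform: the mean of glands 417_3 and 517_3 was 6.08 times that of glands 133 and 392 for Cdcp1, 3.47 times for St14, 3.37 times for Spint1, 2.48 times for Spint2 and 2.31 times for Prss8. These were also the glands with the lower adipocyte marker levels. The adipocyte markers enter the test below as a covariate of 1 alternative.

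The non-TRIM24 tumors differed among themselves in the same direction for 9 of the 10 members. FVB001 had between 6.39% (Tmprss2) and 15.9% (Spint2) of the TPM of tumor 219 for these 9 genes, while its Klk8 was at 129%. FVB002 lay between them, at 58.0% to 85.7% of tumor 219 for the same genes. FVB001 was also the library with 4315 TPM of Adipoq, against 1525 TPM in FVB002 and 3.31 TPM in tumor 219. The adipocyte markers summed to 54715 TPM in FVB001, 27831 TPM in FVB002 and 214 TPM in tumor 219. The part of adipose tissue in these values was not tested.

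**Figure D1:**
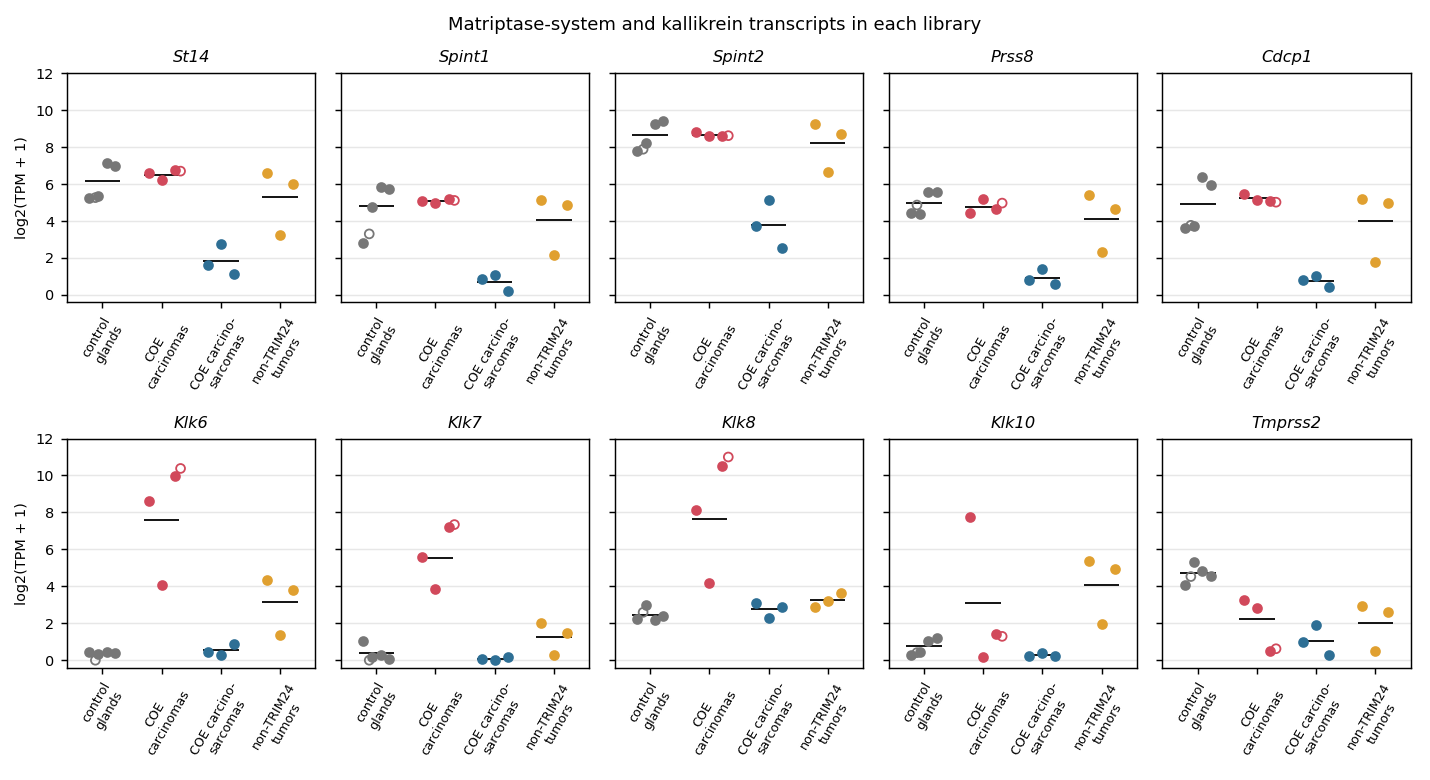
Each panel plots 1 gene on the log2(TPM + 1) scale by group, with filled points for first libraries, open points for the 2 repeat libraries and a horizontal line at the mean of the group's first libraries. The 5 panels of the upper row show carcinosarcomas below all other libraries, and the kallikrein panels show the wide scatter among the 3 carcinomas, from 17.4 to 1475 TPM for Klk8.

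While the levels of St14, Spint1, Spint2, Prss8 and Cdcp1 spanned 93.4-fold (Prss8) to 330-fold (Spint1) over the 13 mice, the proportions among these 5 genes moved much less. Spint2 was present at 3.63 to 11.5 times the TPM of St14 in every mouse. The ratio to St14 ran from 0.218 to 0.565 for Prss8, from 0.171 to 0.579 for Cdcp1 and from 0.144 to 0.668 for Spint1. The highest ratio was thus 2.60 to 4.64 times the lowest for these 4 genes. Tmprss2 did not keep its proportion, since its ratio to St14 ran from 0.00404 to 0.989, a 245-fold span. The epithelial adhesion genes Epcam and Cdh1 kept a similar proportion, with highest ratios 5.75 and 5.72 times the lowest. The luminal keratin gene Krt8 did not, since its ratio to St14 ran from 3.20 in carcinoma 89 to 774 in carcinosarcoma 897. Carcinosarcoma 897 held 914 TPM of Krt8 and 463 TPM of Krt18, with 1.18 TPM of St14, 2.73 TPM of Epcam and 1.29 TPM of Cdh1. These ratios are descriptions, and those at St14 values near 1 TPM rest on low levels.

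**Figure D2:**
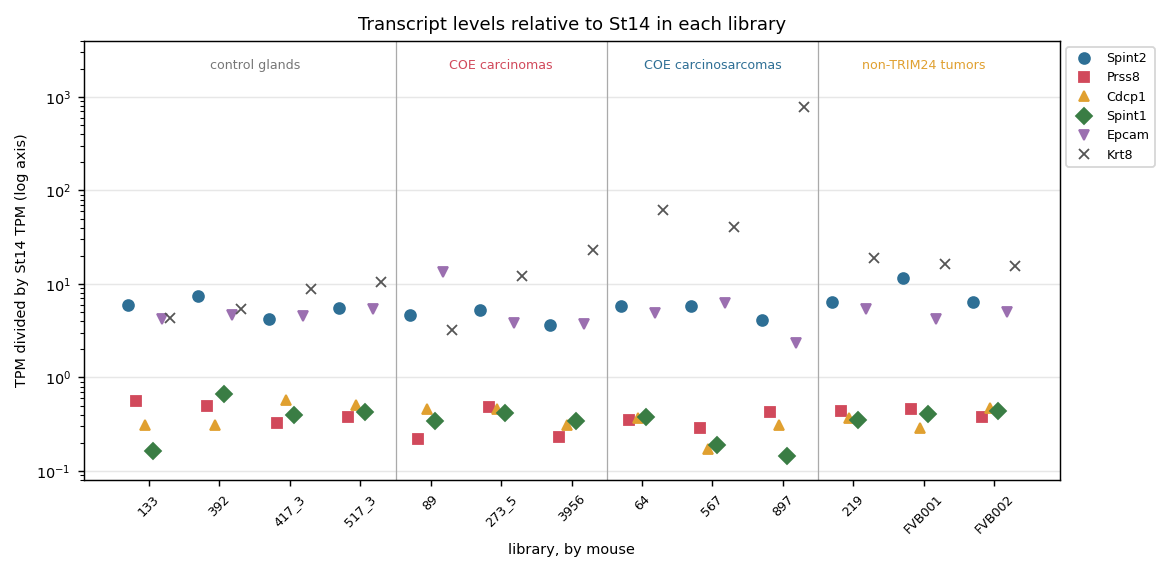
The TPM of 6 genes divided by the TPM of St14 in the same library is plotted on a log axis for the first library of each of 13 mice, ordered by group, with no averaging. Spint2, Prss8, Cdcp1, Spint1 and Epcam stay in narrow bands across groups, while Krt8 reaches 774 times St14 in carcinosarcoma 897.

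The kallikreins followed another pattern and differed from one carcinoma to the next. Klk8, or neuropsin, had 279.6 TPM in carcinoma 89, 17.4 TPM in carcinoma 273_5 and 1475 TPM in carcinoma 3956, with 2047 TPM in the repeat library of the last. Elsewhere it lay between 3.51 and 11.5 TPM, in glands, carcinosarcomas and non-TRIM24 tumors alike. Each carcinoma was above every other library for Klk8.

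Klk6, or neurosin, had 396, 16.0 and 1009 TPM in carcinomas 89, 273_5 and 3956. The glands held 0.25 to 0.35 TPM of it and the carcinosarcomas 0.22 to 0.87 TPM, while the non-TRIM24 tumors 219, FVB001 and FVB002 had 19.3, 1.56 and 13.02 TPM. Non-TRIM24 tumors and carcinomas thus overlapped for Klk6, and each tumor of both kinds was above every gland. The share of all genes for which non-TRIM24 tumors lie apart from the glands was not counted, here and for Klk10 and Tmprss2 below. Klk7, a protease of the outer skin layer, had 47.1, 13.3 and 146 TPM in the same carcinomas, at most 1.07 TPM in a gland and at most 2.99 TPM in a non-TRIM24 tumor. In carcinosarcomas it was at most 0.13 TPM and was listed at 0 in tumor 567.

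Klk10 had a pattern unlike that of its neighbours. It reached 212 TPM in carcinoma 89 but 0.13 TPM in 273_5 and 1.65 TPM in 3956, the tumor with the highest Klk6, Klk7 and Klk8. The non-TRIM24 tumors had 40.0, 2.96 and 29.7 TPM of Klk10, whereas the 4 glands lay between 0.24 and 1.32 TPM and the carcinosarcomas between 0.17 and 0.29 TPM. Every non-TRIM24 tumor was therefore above every gland for this gene, while the carcinoma range ran across that of the glands. Carcinoma 89 was also the tumor with high basal keratins, at 961 TPM of Krt5, 1153 TPM of Krt14 and 1203 TPM of Krt17. The other basal markers were not all high. Myh11 was at most 3.79 TPM in any carcinoma, against 17.8 to 340 TPM in the glands. Acta2 was at most 175 TPM in any carcinoma, against 157 to 1498 TPM in the glands. Trp63 reached at most 31.9 TPM in a carcinoma and 13.7 TPM in a gland. Its 9 epidermal markers summed to 269.9 TPM, mostly Sbsn at 248 TPM, with Ivl, the involucrin gene, at 16.7 TPM against at most 2.77 TPM in any other library. The epidermal keratin genes Krt1 and Krt2 stood at 0.01 and 0.14 TPM. The same sum was 128 to 236 TPM in the non-TRIM24 tumors, 28.2 to 36.0 TPM in the glands and 8.48 TPM in carcinoma 3956. The part of squamous or skin cells in these kallikrein values was not tested.

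The 4 kallikrein members lie within 50996 bases, with Klk9 as the only other protein-coding gene of that span in the annotation. Of the 9 other kallikreins examined, 5 reached 1 TPM in carcinoma 89, led by Klk13 at 19.7 and Klk11 at 16.3 TPM. In carcinoma 3956 it was Klk9 alone, at 7.03 TPM, and in carcinoma 273_5 Klk1 alone, at 4.44 TPM. Klk5, next to Klk6 in the cluster, stayed at or below 0.53 TPM in every library. Summed over the 4 members, the kallikreins made up 0.263% of all TPM in carcinoma 3956 and 0.0935% in carcinoma 89, and 0.000511% in gland 417_3. In carcinoma 273_5 the sum was 46.9 TPM and in non-TRIM24 tumor 219 it was 68.8 TPM.

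**Figure D3:**
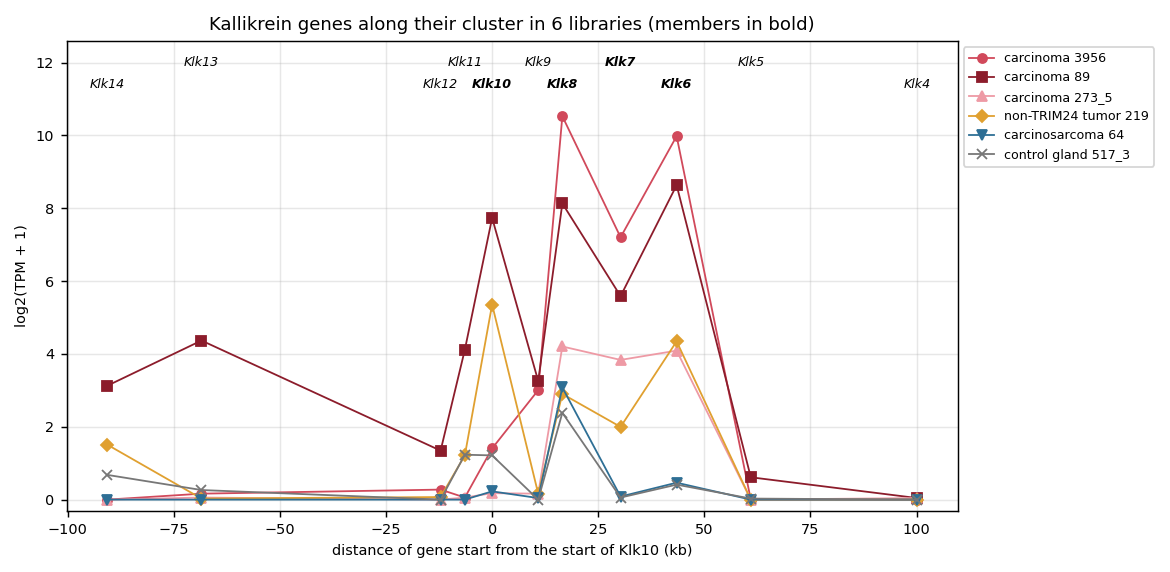
Levels of the kallikrein genes on the log2(TPM + 1) scale are plotted against the distance of each gene's start from that of Klk10 in kb, for 6 libraries, with lines joining the genes of 1 library. Carcinomas 3956, 89 and 273_5 share a peak over Klk8, Klk7 and Klk6, whereas Klk10 is high in carcinoma 89 and non-TRIM24 tumor 219 but not in carcinoma 3956.

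Tmprss2 was highest in the control glands, at 16.0, 39.0, 27.9 and 22.4 TPM. The carcinomas had 8.62, 6.22 and 0.43 TPM, the carcinosarcomas 1.01, 2.73 and 0.22 TPM, and the non-TRIM24 tumors 6.73, 0.43 and 5.11 TPM. Every tumor of the 3 groups was below every gland, and the 3 tumor groups overlapped with one another. Unlike for St14, the mean of the fat-poor glands 417_3 and 517_3 was close to that of the fat-rich glands 133 and 392, at 0.915 times. The fat-rich glands themselves differed, at 16.0 and 39.0 TPM, and lay on both sides of the fat-poor pair. Carcinoma 3956, with 106 TPM of St14, had the lowest Tmprss2 of its class in both of its libraries (0.43 and 0.54 TPM).

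The question of the study's main comparison was what separates Trim24COE tumors from un-diseased glands. The 6 tumors and 4 glands of batch 1 were compared with limma on log2(TPM + 1), where a log2 difference is the mean of the tumors minus that of the glands. Of 15196 genes tested, 17.1% passed an adjusted p of 0.05. Of the 10 members, 9 passed the filter on low values, since Klk6 reached 1 TPM in only 3 of these libraries, and 1 of the 9 passed the test. This was Tmprss2, which fell by 3.06 (log2, SE 0.59, limma adjusted p = 0.00652), was lower in 6 of 6 tumors and had an exact two-sided permutation p of 0.00952. All 6 tumors lay below all 4 glands for 7.2% of the genes tested.

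The other members did not pass. St14 differed by -1.99 (95% interval -4.59 to 0.62, limma adjusted p = 0.271), Spint1 by -1.89 (adjusted p = 0.279), Spint2 by -2.42 (adjusted p = 0.199), Prss8 by -2.13 (adjusted p = 0.149) and Cdcp1 by -1.93 (adjusted p = 0.280). For each of these 5 genes, 3 of 6 tumors were below every gland, and these were the 3 carcinosarcomas. Klk7 differed by 2.43 (adjusted p = 0.249), Klk8 by 2.75 (adjusted p = 0.216) and Klk10 by 0.95 (adjusted p = 0.654). For Klk6, left out of the fit, 5 of 6 tumors were above every gland and the exact permutation p was 0.181. The exact test was run for all 10 members, and 6 against 4 samples allow no p below 0.00476. The median difference of the 9 members was -1.93, against -0.04 over all genes tested.

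The number of members past the threshold changed with the model. With the 2 tumor classes as separate groups, so that the spread is that within each class, 7 of the 9 members passed: St14, Spint1, Spint2, Prss8, Cdcp1 and Tmprss2 were lower and Klk7 higher, with the same differences. That model called 20.4% of all genes. That fit draws on the class difference known when the members were chosen, and is not independent of it. For Klk7, 3 of 6 tumors, the carcinomas, were above every gland, while the carcinosarcomas had at most 0.13 TPM. Klk7 passed the filter on low values through these carcinomas and gland 133, which had 1.07 TPM and 0 TPM in its repeat library. With the adipocyte markers as a covariate none of the 9 passed in limma (1 at an unadjusted p under 0.05) against 7.96% of all genes, and Tmprss2 differed by -2.40 (limma adjusted p = 0.0817). With the luminal markers as a covariate, Tmprss2 and Klk7 passed, as did 10.3% of all genes, and St14, Spint1 and Cdcp1 turned to 0.33, 0.31 and 0.36. With glands 417_3 and 517_3 averaged, Tmprss2 was the single member that passed, beside 11.6% of all genes.

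The non-TRIM24 tumors were compared with the glands in a fit of all 15 libraries with a term for the sequencing batch, which the 2 mice sequenced in both batches carry. Of 16775 genes, 0.107% passed. None of the 10 members did in limma at an adjusted p of 0.05, and 1, Klk10, had an unadjusted p under 0.05. Klk10 differed by 4.25 (95% interval 0.49 to 8.02, unadjusted p = 0.0296, adjusted p = 0.432) and was higher in 3 of 3 tumors than in any gland. The share of all genes in that order was not counted. All first gland libraries are in batch 1 and these tumors in batch 2, so group and batch cannot be told apart in that order. Tmprss2 differed by -1.96 (95% interval -3.93 to 0.02, adjusted p = 0.476). The intervals of St14 (-2.41 to 1.63), Spint1 (-1.97 to 2.26), Spint2 (-1.78 to 1.85), Prss8 (-2.50 to 0.79) and Cdcp1 (-2.38 to 2.08) leave room for changes of several fold in either direction, or for Prss8 mainly downward. The median over the members was -0.06, and -0.21 over all genes tested. Without the batch term Tmprss2 passed, with a difference of -2.64 (limma adjusted p = 0.0318), as did 11.1% of all genes. Without FVB001 the member count stayed at 0.

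**Figure D4:**
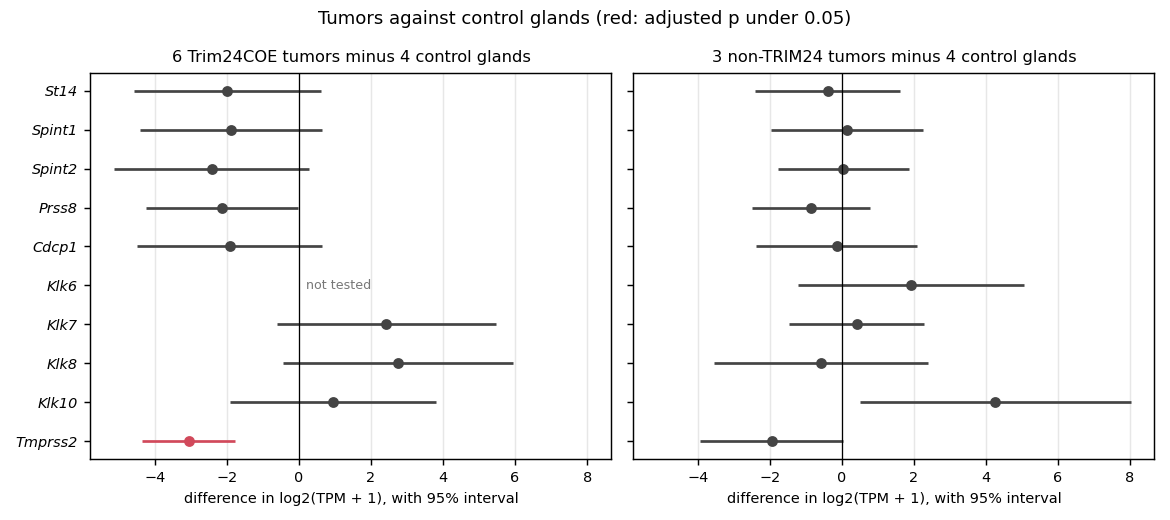
Differences in log2(TPM + 1) between tumors and control glands are plotted with their 95% intervals for 6 Trim24COE tumors (left) and 3 non-TRIM24 tumors (right), with red for an adjusted p under 0.05 and Klk6 not tested on the left. Tmprss2 at -3.06 on the left is the single red point, and the intervals of the matriptase-system genes on the right lie around 0.

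The 2 classes of Trim24COE tumor are set side by side here as a description. On the log2(TPM + 1) scale the difference of carcinosarcomas minus carcinomas was -4.67 for St14, -4.36 for Spint1, -4.86 for Spint2, -3.84 for Prss8 and -4.47 for Cdcp1. It was -7.02 for Klk6, -5.46 for Klk7, -4.86 for Klk8 and -1.15 for Tmprss2. In TPM, the carcinoma mean was 30.1 times the carcinosarcoma mean for St14, 47.3 times for Spint1, 23.7 times for Spint2, 27.8 times for Prss8 and 51.4 times for Cdcp1. The gland mean was 26.1 (Spint2) to 58.3 (Cdcp1) times that of the carcinosarcomas for the same genes, and the carcinoma mean was 0.81 to 1.08 times that of the glands. For 8 of the 10 members every carcinosarcoma lay below every carcinoma, with Klk10 and Tmprss2 as the exceptions. Over all 14193 genes tested this order held for 14.4%, and 0.698% passed the limma test. The median difference was -4.67 over 9 members and -0.10 over all genes tested. The luminal marker sums of both classes did not overlap either, and the part of a lower epithelial share in these differences was not tested.

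A set of 4 lists of other genes of the system, 69 genes in all, was examined alongside. The lists were chosen with earlier results of these data known, so their shares are not independent of those results. Between Trim24COE tumors and glands, 40 of the 69 genes passed the filter, 4 rose and 7 fell, or 27.5% against 17.1% of all genes. Among the substrates and receptors, 19 of 23 were tested, 2 rose and 3 fell. The 3 that fell were the subunits of the epithelial sodium channel, which prostasin can activate by cleavage: Scnn1b by 4.22 (SE 0.67, limma adjusted p = 0.00234), Scnn1a fell by 2.50 (adjusted p = 0.00367) and Scnn1g fell by 2.15 (adjusted p = 0.0398). Those that rose were Plat, the tissue plasminogen activator gene, by 2.13 (adjusted p = 0.0220), and F2r, the thrombin receptor gene, by 1.99 (adjusted p = 0.0155). Their median difference was 0.45.

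From the list of type II transmembrane and other serine proteases, 6 of 19 were tested, with a list median of -1.37. Tmprss6, which encodes matriptase-2, fell by 3.44 (limma adjusted p = 0.0176) and Tmprss13 fell by 2.52 (adjusted p = 0.0133). Tmprss6 was at 63.6 and 57.6 TPM in glands 417_3 and 517_3 but at 1.59 and 3.78 TPM in glands 133 and 392. Among the other inhibitors, 13 of 18 were tested, with a median of 0.94. Serpine2, or protease nexin 1, rose by 3.07 (adjusted p = 0.00470) and Tfpi2 by 3.09 (adjusted p = 0.0147), while Serpina1a fell by 1.68 (adjusted p = 0.00118) and Serpina3n fell by 1.68 (adjusted p = 0.0301). Serpina1a and Serpina3n belong to multigene families with closely similar copies, so their values are uncertain. None of the 2 tested other kallikreins passed.

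The most abundant gene of each list by mean TPM over the 13 mice was Epcam among the substrates, Slpi among the inhibitors, Prss22 among the proteases and Klk11 among the kallikreins, where it had a mean of 1.80 TPM and rested on carcinoma 89. Epcam, whose product matriptase cleaves, had 1275, 281 and 401 TPM in carcinomas 89, 273_5 and 3956 and 10.3, 36.4 and 2.73 TPM in the carcinosarcomas. Slpi, a secreted inhibitor of serine proteases, ranged from 16.8 TPM in gland 133 to 2373 TPM in carcinoma 273_5. Prss22, a tryptase-like protease, had 213, 8.95 and 73.4 TPM in the carcinomas and at most 5.49 TPM in a gland.

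Between the 2 tumor classes, 2 of 31 tested list genes passed, or 6.45% against 0.698% of all genes, and both were lower in carcinosarcomas. The lists were chosen with earlier results of these data known, so this share is not independent of the class difference. Cldn7, a tight junction gene whose product pairs with EpCAM, fell by 5.08 (SE 0.64, limma adjusted p = 0.0218), and Serpinb5, the maspin gene, fell by 4.78 (SE 0.70, adjusted p = 0.0416). Neither passed in limma without the filter on low values or without carcinosarcoma 64, carcinosarcoma 897 or carcinoma 89, and 1 list gene passed without carcinosarcoma 567. The substrates and receptors had 16 genes tested and a median of -0.04, and the inhibitors 12 genes and a median of -0.31. The 2 genes tested from the protease list, Hpn and Prss22, had a median of -2.91. None of the 45 list genes tested between non-TRIM24 tumors and glands passed in limma, while 2 did when the libraries of a mouse were linked, as did 0.709% of all genes, and 4 without the batch term.

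Across the 10 mice of batch 1, the genes whose log2(TPM + 1) most resembled that of St14, among 13908 compared, were Kdf1 (Pearson r = 0.996), Rab25 (0.995), Cblc (0.993), Prss16 (0.993) and Cldn7 (0.993). For Cdcp1 they were Kdf1 (0.993), Dsg2 (0.991), Grhl2 (0.990), Map7 (0.987) and Ltbp3 (0.987). For Klk10 they were Krtdap (0.979), Fgfbp1 (0.970), Clip4 (0.969), Pi15 (0.956) and Dhx57 (0.951). These values are descriptions over 10 mice in separate groups, in which the carcinosarcomas were low for St14 and Cdcp1 and carcinoma 89 was high for Klk10.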

How the data were processed

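Bulk RNA-seq of 15 libraries from 13 mice was used, with groups, tumor classes and batches from the labels. The values are TPM, which the authors estimated per gene with RSEM and deposited as 2 tables, 1 per batch. The methods name STAR, GRCm38 and GENCODE M14, whereas the labels name TopHat, Cufflinks and mm10 and a stranded kit, so the aligner and the use of strand are uncertain. DESeq and edgeR are named in the submitters' notes, and no counts were used here.

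TPM plus 1 were log2 transformed and tested in R 4.3.3 by limma 3.58.1 (eBayes with a variance trend after lmFit, two-sided, Benjamini-Hochberg over all genes tested, threshold 0.05). Genes entered a fit with 1 TPM or more in a number of libraries equal to the size of the smaller group. A log2 difference on this scale understates the change of low genes. Trim24COE tumors and tumor classes were compared within batch 1, with the first library of each mouse. The comparison with non-TRIM24 tumors used all libraries and a batch term, where repeats enter as libraries. Exact permutation tests over the 10 members used all 210 splits (SciPy 1.17.1, Python 3.11.15). The fit was tested on simulated data. Positions come from GENCODE M21 on GRCm38, where Tmprss2 carries a later version number than in the tables.

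The members and lists were chosen with earlier results of these data known. Named genes were all members and, per list and comparison, up to 4 genes past the threshold with the smallest adjusted p, plus the gene with the highest mean TPM. The 5 genes most like St14, Cdcp1 and Klk10 were named too. Klk1, Klk5, Klk9, Klk13 and the markers Adipoq, Krt1, Krt2, Krt5, Krt8, Krt14, Krt17, Krt18, Cdh1, Sbsn and Ivl are outside that rule, picked with their values in view. The same holds for the markers Vim, Fn1, Col1a1, Col3a1, Pdgfrb, Trp63, Acta2 and Myh11. Alternatives changed the pseudocount, filter, scaling, samples, covariates and batch term. No paired analysis was possible because every mouse belongs to 1 group.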

Additional observations from a re-analysis of the deposited data

Results flagged for a closer look

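One of 20 checks of a member within the 4 control glands or the 6 Trim24COE tumors found a sample far from the others. For Klk10, carcinoma 89 had 212 TPM, and the nearest of the other 5 tumors, carcinoma 3956, had 1.65 TPM, a gap of 0.837 of the whole range on the log2(TPM + 1) scale. The check is set to flag about 1 in 20 groups by chance. Several members correlate with one another and the 6 tumors hold 2 classes, so that rate need not hold here. The cause of the flag was not tested. Carcinoma 89 has no repeat library.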

How the results depend on the processing

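Tmprss2 was the 1 member past the threshold between Trim24COE tumors and glands, and the count stayed at 1 with a pseudocount of 0.1 TPM, without the filter, with quantile normalization, with glands 417_3 and 517_3 averaged (chosen after seeing the data) and without each mouse in turn. It became 7 with the tumor classes as separate groups, where the spread is that within classes and 20.4% of all genes passed, 0 with the adipocyte covariate and 2 with the luminal covariate. With the luminal covariate St14, Spint1 and Cdcp1 reversed to 0.33, 0.31 and 0.36. Over its alternatives Tmprss2 differed by -3.84 to -2.40, with limma adjusted p from 0.00236 to 0.0817. Between non-TRIM24 tumors and glands the count of 0 became 1 without the batch term and held in the other alternatives. Small differences there changed sign: without the batch term Spint1 was -0.46, Spint2 -0.30 and Klk8 0.78, with linked libraries -0.94, -0.49 and 0.35, with quantile normalization Spint2 was -0.16, and with glands 417_3 and 517_3 averaged Cdcp1 was 0.015. Leaving out each mouse in turn, St14 ranged from -1.37 to 0.62, Spint1 from -1.45 to 1.09, Spint2 from -0.70 to 0.82, Prss8 from -1.50 to 0.057, Cdcp1 from -1.16 to 0.94, Klk6 from -0.031 to 3.17, Klk7 from -0.71 to 1.25 and Klk8 from -2.64 to 0.66. Without FVB001, St14 was 0.62. The 99 genes past the threshold between the tumor classes became 0 without the filter, where limma tested 35695 genes and 2871 had an unadjusted p under 0.05, and 0 to 293 without 1 mouse: 0 without carcinosarcoma 64 or carcinoma 89, 14 without 897, 49 without 567 and 293 without carcinoma 3956. The cause of these changes was not tested. All member differences between classes stayed below 0 in 9 alternatives each, Klk10 aside, which was fitted in 5. Depth is unknown, and 3 or 4 mice per group limit the precision.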

Other observations

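Other protease and inhibitor genes, chosen here after their values were seen, were high in some Trim24COE carcinomas, and Tmprss4 also in non-TRIM24 tumors. Tmprss11e, which encodes a membrane-anchored serine protease of squamous epithelia, had 151 TPM in carcinoma 3956 and 76.1 TPM in its repeat library, 16.3 TPM in carcinoma 89, and at most 0.38 TPM in every other library. Tmprss4 had 44.3 TPM in carcinoma 273_5 and 45.8 and 30.4 TPM in non-TRIM24 tumors 219 and FVB002, and at most 4.64 TPM in the remaining libraries. Spink5, which encodes the kallikrein inhibitor LEKTI, had 16.4 TPM in carcinoma 89 and at most 1.44 TPM in every other library. Plau, the urokinase gene, had 1442 TPM in carcinoma 3956 and 1241 TPM in its repeat library, against 28.4 to 36.1 TPM in the glands. Over all Trim24COE tumors Plau differed from the glands by 2.28 (log2, limma adjusted p = 0.0721). Carcinosarcomas differed from carcinomas by 0.10 (SE 1.28, limma adjusted p = 0.978). A difference of class means with this SE cannot show which single tumors had high Plau. The first and repeat libraries of carcinoma 3956 differed by 0.40 for Klk6 and 0.47 for Klk8 on the log2(TPM + 1) scale, and by -0.05 for St14.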
